A study of Mus musculus with 24 samples.

Results

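The genes described here encode the proteins of the cytosolic ribosome. They were measured by RNA sequencing of the gastrocnemius, the large calf muscle of the hindlimb, in mice. Genes were chosen by symbol: Rpl or Rps followed by a number, with an optional letter and digit for a paralog, plus Rplp0, Rplp1, Rplp2 and Rpsa. A mean of at least 10 estimated counts over the 24 libraries was also required, and no measured difference between groups entered the choice. Of 36172 gene models, 84 had such a symbol and 81 passed the count minimum, 32 of the small subunit and 49 of the large subunit. The 3 that did not pass were Rps3a (named Rps3a1 in RefSeq) and Rpl10l, both listed at 0 in every library, and Rpl39l, with a mean of 2.0 counts. The member nearest the minimum was Rps4y2 (named Rps4l in RefSeq), with a mean of 79.3 counts, and 80 of the 81 had a mean of at least 1000. The members lie on 19 chromosomes.

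A ribosome is built from a small subunit, which holds the mRNA and reads its codons, and a large subunit, which joins amino acids and carries a flexible stalk of acidic proteins that recruits elongation factors. Each ribosome takes up 1 copy of nearly every protein, so their mRNAs are usually kept at matched levels. Most of these mRNAs begin with a run of pyrimidines, the TOP motif, through which mTORC1 and the RNA-binding protein Larp1 control their translation. Skeletal muscle differs from most tissues in expressing Rpl3l, a paralog of the core protein Rpl3, and changes in ribosome number accompany growth and loss of muscle mass.

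All mice were C57BL/6 and carried floxed Notch2 alleles. Notch2-mKO mice (Mlc1fCre/+;Notch2f/f) also carried a Cre under the control of Mlc1f, a gene of fast muscle fibres, so that the receptor gene is deleted in fibres and not in the other cells of the muscle. Mice labelled WT (Notch2f/f) had no Cre. Each genotype was studied after 7 days of hindlimb suspension, called unloading below, at 14 days after a single dose of 150 mg/kg streptozotocin, a toxin of the insulin-producing cells, called diabetes below, and as untreated controls, with 4 libraries in each of the 6 groups. The labels do not say that the replicates were separate animals, and the p-values below rest on sample-to-sample spread that may be partly technical.

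Libraries held 33112459 to 56369917 estimated counts. Levels are given in CPM, estimated counts divided by the library total, scaled by edgeR's TMM method, in units of 1000000 counts. Muscle fibre genes (9 of 9 listed markers, Acta1, Ckm and Myh4 among them) summed to between 127145 and 297421 CPM. Acta2, of smooth muscle, was listed at 0 in every library, but the 5 pericyte and smooth muscle genes that include it summed to between 49.3 and 99.5 CPM. Notch2 itself stood at 1.29 to 1.58 CPM in Notch2-mKO unloading, 1.15 to 2.16 in Notch2-mKO diabetes and 1.25 to 2.55 in Notch2-mKO controls. It stood at 1.34 to 2.02 CPM in WT unloading, 1.74 to 3.18 in WT diabetes and 1.76 to 1.92 in WT controls. The whole-gene count covers sequence outside the floxed part and cells without Cre, so it does not check the genotype labels. Libraries also differed in how AT-rich transcripts (under 42% GC) were recovered relative to GC-rich ones (over 56% GC). The mean log2 level of the AT-rich genes minus that of the GC-rich genes was -0.87 to -0.33 in Notch2-mKO unloading, -0.68 to -0.34 in Notch2-mKO diabetes and -1.29 to -0.60 in Notch2-mKO controls. It was -0.28 to -0.10 in WT unloading, -0.44 to -0.08 in WT diabetes and -1.66 to -0.84 in WT controls, so that both WT treatments lay clear of their controls. Values from a fit with each library's trend of counts over GC content and transcript length removed are therefore given beside the main values and called trend-removed. The trend was fitted over all genes without regard to treatment. Its removal can also take away treatment effects that go with GC content or length. In WT muscle these cannot be told apart from a difference in recovery, so a call lost trend-removed is not thereby shown to be technical.

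The starts of 8 members are shown because the TOP motif is described for most of these mRNAs and these members recur in the results below. Each window holds 15 bases before the annotated start and 15 from it on, on the strand of the gene, from RefSeq's promoter table on GRCm38.p6, and capitals mark a C followed by at least 4 further C or T letters that begins within 5 bases of the start. Rps6 (chr4:86857353-86857382, minus strand), whose protein is phosphorylated by S6 kinases, Rps24 (chr14:24490663-24490692, plus strand), Rpl12 (chr2:32961697-32961726, plus strand) and Rpl39 (chrX:37085208-37085237, minus strand) held the run:
Rps6: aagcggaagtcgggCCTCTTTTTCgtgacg
Rps24: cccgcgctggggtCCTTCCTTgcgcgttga
Rpl12: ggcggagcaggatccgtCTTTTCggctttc
Rpl39: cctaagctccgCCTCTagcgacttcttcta
Rpl4 (chr9:64173372-64173401, plus strand), Rpl22 (chr4:152324421-152324450, plus strand), Rplp0 (chr5:115559452-115559481, plus strand) and Rpl3l (chr17:24727811-24727840, plus strand) held no such run at the annotated start:
Rpl4: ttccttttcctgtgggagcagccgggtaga
Rpl22: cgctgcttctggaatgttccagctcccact
Rplp0: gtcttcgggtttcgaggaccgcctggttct
Rpl3l: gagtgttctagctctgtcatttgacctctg
The table had an entry for 60 of the 81 members, and 51 of those entries began at the annotated start of the gene. The run was present in 28 of the 60 members (46.7%), against 18.5% of all 27025 promoters. The letters CCGGAAG, or CTTCCGG on the other strand, which are the core bound by ETS factors, occurred in the 250 bases before the start in 17 of the 60 members (28.3%) and in 7.05% of all promoters. A TATAAA between 40 and 16 bases before the start was found in 1 of the 60 members (1.67%) and in 2.22% of all promoters. The TOP motif begins at the exact transcription start, which these annotated starts may miss by a few bases.

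Among the members, levels per length spanned 18.7-fold from the highest to the lowest, paralogs aside. Expressed as the mean CPM per kilobase of transcript over 24 libraries, the highest were Rps2 (869), a small-subunit protein near the mRNA entry channel, Rplp0 (820), the scaffold of the stalk, and Rplp1 (816), one of the acidic stalk proteins. Rps14 (700) and Rps15 (689), both of the small subunit, followed closely. The lowest were Rpl5 (149), which joins the large subunit bound to an rRNA, Rpl39 (112), a very short protein of the exit tunnel, Rps20 (63.4), Rps23 (62.7), which lines the decoding centre, and Rpl3 (46.4). The value of Rps20 rests on a transcript model of 3706 bases, the longest of the family, whose median length was 681 bases. In CPM without division by length, 50 of the 81 members were among the 500 highest genes of the 13048 tested, Rplp0 at rank 75.

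**Figure D1:**
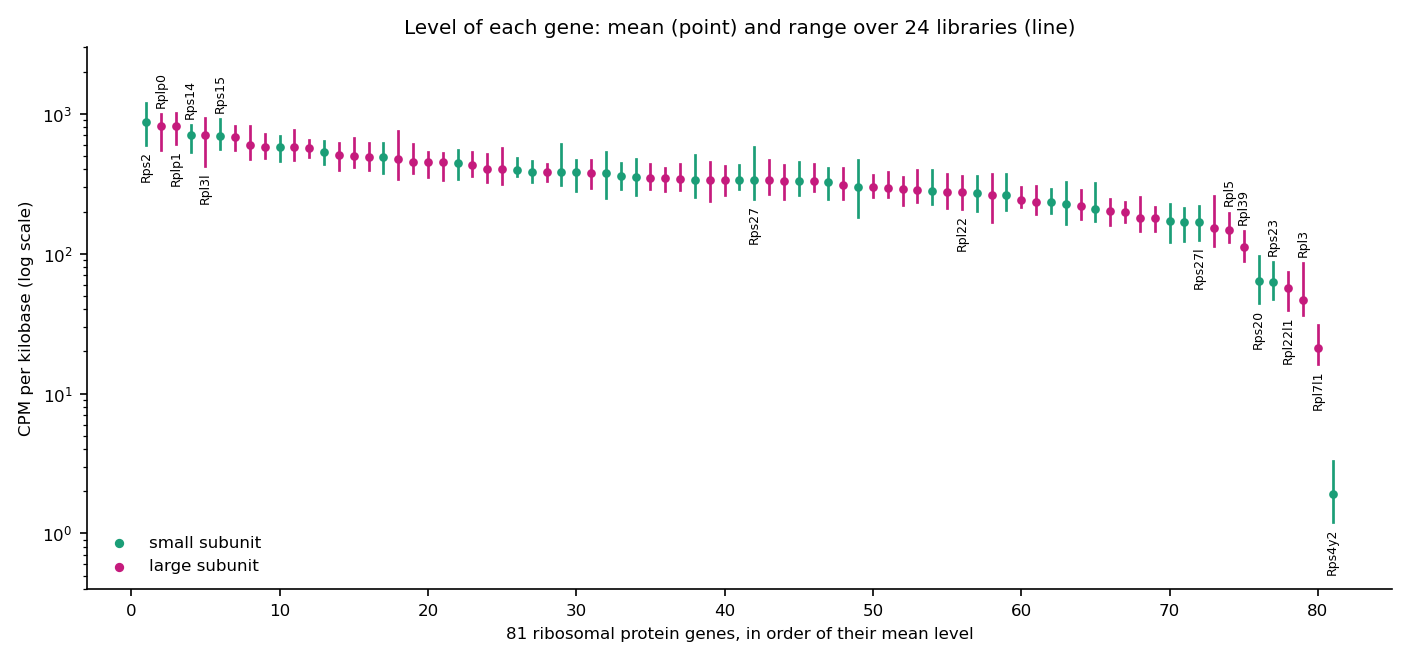
Level of each of the 81 genes in CPM per kilobase of transcript on a log axis, ordered from high to low. Points are means over 24 libraries, lines span the lowest to the highest library, green marks the small subunit and magenta the large subunit; Rps2, Rplp0 and Rplp1 stand highest, at 816 to 869 CPM per kilobase.

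The paralogs stood at very different levels. Rpl3l, which replaces Rpl3 in heart and skeletal muscle ribosomes, averaged 699 CPM per kilobase, next to Rps14 in the order of levels, while Rpl3 averaged 46.4. Rpl22l1 averaged 56.5, Rpl7l1 21.1 and Rps4y2 1.92 CPM per kilobase. Rpl3l and Rps2 lie 5898 bases apart on chromosome 17. Of 258 gene models named as ribosomal protein pseudogenes, 253 were listed at 0, and the others together held 0.0203% as many counts as the members. How reads that match several copies were assigned is not given in the sources used here, so that levels of members with near-identical copies are uncertain.

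Rpl3l was the form present in excess in every library. In Notch2-mKO muscle it made up 79.0%, 93.2%, 93.1% and 92.7% of the summed CPM of Rpl3l and Rpl3 in unloading, 91.5%, 91.7%, 92.8% and 92.6% in diabetes, and 92.8%, 93.4%, 93.7% and 92.7% in controls. In WT muscle the share was 89.6%, 92.0%, 92.3% and 93.2% in unloading, 92.8%, 90.5%, 86.5% and 92.0% in diabetes, and 92.7%, 93.2%, 94.2% and 92.6% in controls. One unloaded Notch2-mKO library fell far below its group, and each treated group overlapped its controls. Per kilobase, Rpl3l exceeded Rpl3 14.3-fold in Notch2-mKO unloading, 15.4-fold in Notch2-mKO diabetes and 17.8-fold in Notch2-mKO controls, and 15.01-fold in WT unloading, 13.2-fold in WT diabetes and 18.02-fold in WT controls, as means of 4 libraries each. Unloaded Notch2-mKO replicate 1 gave 4.93-fold, against 16.7-fold to 18.05-fold in the rest of its group. Replicate 3 of WT diabetes gave 8.34-fold, against 12.4-fold to 16.8-fold in the rest of its group.

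The family as a whole made up between 1.72% and 3.20% of the counts of a library. Its summed level was 21496 ± 2649 CPM in Notch2-mKO unloading, 22129.6 ± 352 in Notch2-mKO diabetes and 21346 ± 1799 in Notch2-mKO controls (SD, n = 4 each). It was 19819 ± 1461 CPM in WT unloading, 22617 ± 2124 in WT diabetes and 22068 ± 1976 in WT controls (SD, n = 4 each). Every group overlapped every other that it was compared with. In bulk tissue, a lower level cannot be told apart from fewer cells of a type that carries the mRNA.

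Among the libraries, 2 stood apart. Unloaded Notch2-mKO replicate 1 gave the family 3.20% of its counts, against 1.72% to 2.08% in the other 3 libraries of its group, and 70 of the 81 genes were above their own mean over all libraries. Its muscle fibre genes summed to 127145 CPM, against up to 234361 in its group, its Rpl3 level was 116 CPM, against 49.1 to 57.6, and its Rpl3l level was 435 CPM, against 678 to 776. Replicate 3 of WT diabetes gave the family 2.86% of its counts, with 72 of the 81 genes above their own mean, and had the lowest fibre gene sum of its group, 164642 CPM. The mean relative level of the family and some further results are given with and without these libraries. Other means of the 2 groups include them.

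**Figure D2:**
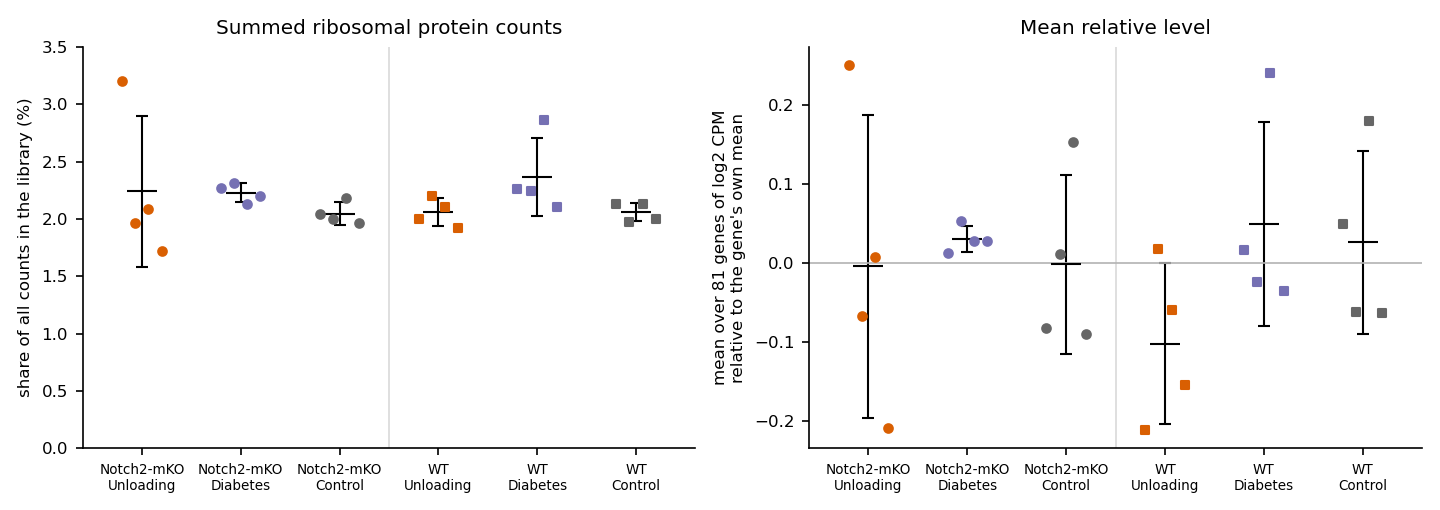
Share of all counts held by the 81 genes (left, percent) and mean over the 81 genes of log2 CPM relative to each gene's own mean (right) in each of 24 libraries. Points are libraries, bars are group means with SD (n = 4), and unloaded Notch2-mKO replicate 1 stands at 3.20% of counts.

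The mean level of the 81 genes relative to their own means was lowest in WT unloading, with no test made. It was -0.10 ± 0.102 on the log2 scale in WT unloading and 0.03 ± 0.115 in WT controls (SD, n = 4 each), a difference of -0.13, against a pooled within-group SD of 0.123. In Notch2-mKO muscle, the unloaded libraries averaged -0.0038 ± 0.192 and the controls -0.0015 ± 0.113, and without unloaded replicate 1 the difference was -0.09. In diabetes the difference was 0.03 in Notch2-mKO muscle and 0.02 in WT muscle, and the WT value turned to -0.04 without replicate 3 of the diabetic libraries. The ranges of the libraries overlapped in each of these comparisons.

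Within groups, the members moved together across libraries. After the group means were subtracted, the correlation of each member with the mean of the others over 24 libraries had a median of 0.81, and 75 of the 81 were above 0.5. Without the 2 libraries that stood apart the median was 0.75. The lowest value, -0.36, belonged to Rpl3l, and it was 0.61 without those libraries. All points share libraries and their scaling, so these correlations only describe the data. The within-group coefficient of variation had a median of 10.9% over the members, 18.6% over all genes tested and 12.5% over the 3221 genes at or above the level of Rpl7l1.

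In WT muscle, a smaller share of the family than of all genes tested was called in unloading. A gene was called when its p from edgeR's quasi-likelihood test, adjusted by Benjamini and Hochberg's method across the 13048 genes tested, was under 0.05. Of the 81 genes, 2 were called higher and 10 lower, 14.8% in all, against 18.4% called higher and 16.3% called lower (34.7% in all) of all genes tested. The difference between these shares was not tested. The members' median log2 fold change was -0.14, with 65 of 81 below 0, against -0.02 over all genes tested. It was 0.05 trend-removed, against 0.0051 over all genes tested, and 0.12 on the authors' log2 scale, against 0.07. On the authors' scale, log2 fold changes of genes at 10 CPM or more were higher than in the main fit by a median of 0.25. With that offset between the fits subtracted, the members' median was -0.13. In 3 of 81 members every unloaded library lay above every control, against 17.3% of all genes tested. In 14 of 81 every one lay below, against 16.0% of all genes tested.

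Small-subunit genes were among the falls in WT unloading. Rps2 (chr17:24718121-24721927 in RefSeq's annotation of GRCm38) stood at 598, 706, 662 and 651 CPM in unloaded WT muscle, against 948, 962, 1195 and 856 CPM in WT controls. All 4 unloaded libraries lay below all 4 controls, with a log2 fold change of -0.60 ± 0.109 (SE, adjusted p = 0.000186), and the trend-removed change was -0.29 (adjusted p = 0.0534). Rpsa, a small-subunit protein that also occurs as a laminin-binding receptor precursor, stood at 419, 515, 462 and 492 CPM in unloaded WT muscle, against 622, 558, 764 and 566 CPM in WT controls. It fell by 0.41 on the log2 scale (SE 0.111, adjusted p = 0.00584), without overlap of the groups, and its trend-removed change was -0.13 (adjusted p = 0.443). Rps15, of the head of the small subunit, stood at 281 to 349 CPM in unloaded WT muscle and 359 to 457 CPM in WT controls, a change of -0.37 ± 0.107 (SE, adjusted p = 0.00971), but 0.06 trend-removed. Over the 32 small-subunit genes, 0 were called higher and 4 lower (12.5% in all). Over the 49 large-subunit genes, 2 were called higher and 6 lower (16.3% in all), against 18.4% higher and 16.3% lower of all genes tested.

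The stalk showed the same direction in WT unloading for its scaffold. Rplp0 stood at 751, 1014, 985 and 890.2 CPM in unloaded WT muscle, against 1278, 1152, 1355 and 1077 CPM in WT controls. Every unloaded library was below every control, with a log2 fold change of -0.42 ± 0.103 (SE, adjusted p = 0.00277) and a trend-removed change of -0.24 (adjusted p = 0.0974). The acidic proteins that bind it did not pass the test: Rplp1 averaged 347 ± 45.7 CPM in unloaded WT muscle and 406 ± 60.3 CPM in WT controls (SD, n = 4 each, edgeR adjusted p = 0.129), and Rplp2 averaged 222 ± 19.5 and 264 ± 39.4 CPM in the same groups (edgeR adjusted p = 0.0999).

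Among the other large-subunit genes, the paralogs Rpl3l and Rpl7l1 were called lower in unloaded WT muscle, and Rpl22 and Rpl4 were called higher. Rpl3l stood at 501, 616, 679.9 and 688 CPM in unloaded WT muscle, against 908, 821, 956 and 783 CPM in WT controls. The groups did not overlap and the log2 fold change was -0.48 ± 0.149 (SE, adjusted p = 0.0143); without unloaded replicate 1 it was -0.39 (adjusted p = 0.0618), and trend-removed it was -0.27 (adjusted p = 0.147). Rpl7l1, a paralog of Rpl7, averaged 23.0 ± 2.10 CPM in unloaded WT muscle and 31.4 ± 2.05 CPM in WT controls (SD, n = 4 each), a log2 fold change of -0.45 ± 0.135 (SE, adjusted p = 0.0121), and kept its call trend-removed (adjusted p = 0.0281). A further paralog, Rpl22l1, averaged 27.8 ± 4.28 CPM in unloaded WT muscle and 25.2 ± 5.01 CPM in WT controls (SD, n = 4 each), with a log2 fold change of 0.14 (edgeR adjusted p = 0.526), but trend-removed it was called lower, at -0.64 (edgeR adjusted p = 0.00691).

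Rpl22, an RNA-binding protein on the outer face of the large subunit, stood at 132, 159, 158 and 135 CPM in unloaded WT muscle, against 107, 106, 98.8 and 107 CPM in WT controls. All unloaded libraries were above all controls, with a log2 fold change of 0.48 ± 0.0994 (SE, adjusted p = 0.000613) and a trend-removed change of 0.48 (adjusted p = 0.00241). Rpl4, which reaches into the exit tunnel, stood at 657, 882, 802 and 752 CPM in unloaded WT muscle, against 529, 532, 545 and 645 CPM in WT controls. Again the groups did not overlap, and the log2 fold change was 0.46 ± 0.153 (SE, adjusted p = 0.0218), but the call was lost without unloaded replicate 2 or any 1 of control replicates 1 to 3, with adjusted p-values of 0.0631 to 0.0790, and trend-removed it was 0.39 (adjusted p = 0.0503).

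The other calls, outside the naming rule and listed after their values were seen, were falls of Rpl28, Rps28, Rpl37a and Rpl23a by 0.37, 0.35, 0.35 and 0.26 on the log2 scale. Rpl23a lost its call in 11 of the 24 fits without 1 library, with adjusted p-values of up to 0.138. Rps28 lost its call in 5, with an adjusted p of up to 0.164, that without WT control replicate 3. With the trend removed, 3 members were called higher and 8 lower, against 14.3% and 11.9% (26.2% in all) of all genes tested, and only Rpl22, Rpl7l1 and Rpl37a were called in both fits. The count of calls was 9 without WT control replicate 3 or without unloaded WT replicate 1, and 18 at most when 1 library was left out.

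**Figure D3:**
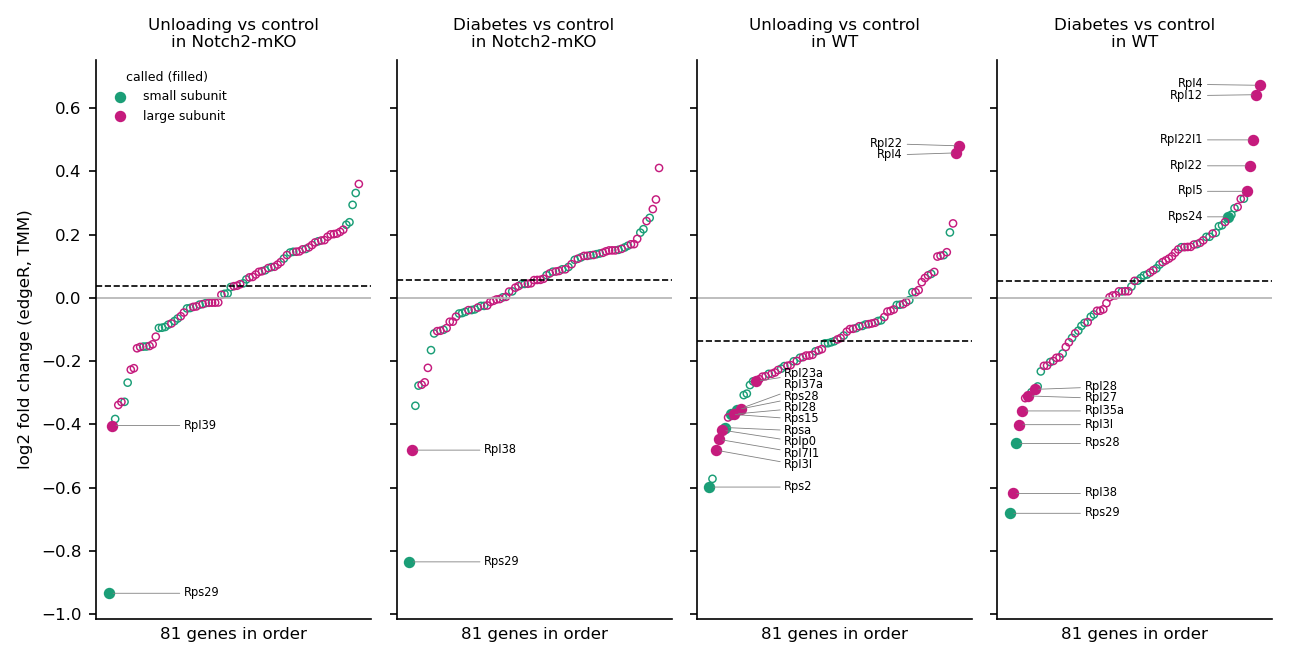
Log2 fold changes of the 81 genes against the controls of the same genotype, sorted within each panel, for Notch2-mKO unloading, Notch2-mKO diabetes, WT unloading and WT diabetes. Filled points passed an adjusted p below 0.05, and the dashed line is the members' median, -0.14 in WT unloading (0.05 trend-removed, 0.12 on the authors' scale) and between 0.04 and 0.06 in the other 3 panels. Trend-removed and on the authors' scale, those medians were 0.09 and 0.15 in Notch2-mKO unloading, 0.15 and 0.18 in Notch2-mKO diabetes, and 0.23 and 0.32 in WT diabetes.

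In unloaded Notch2-mKO muscle, Rps29 and Rpl39 were lower than in Notch2-mKO controls and no member was called higher. These 2 calls are 2.47% of the members, against 4.11% called higher and 3.20% called lower (7.31% in all) of all genes tested. The members' median was 0.04, against 0.02 over all genes tested, and ranged from -0.07 to 0.11 when 1 library was left out. It was 0.09 trend-removed and 0.15 on the authors' scale, against 0.02 and 0.06 over all genes tested. In 2 members every unloaded library lay above every control and in 3 every one lay below, against 6.41% and 6.23% of all genes tested.

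Rps29 (chr12:69157722-69159186), a short zinc-binding protein of the small subunit, stood at 99.2, 73.6, 99.8 and 73.4 CPM in unloaded Notch2-mKO muscle, against 171, 150.4, 182 and 157 CPM in Notch2-mKO controls. The lowest control was far above the highest unloaded library. The log2 fold change was -0.93 ± 0.155 (SE, adjusted p = 0.00156), it was -0.77 (adjusted p = 0.00289) trend-removed, and the call was kept in each fit without 1 library. Rpl39 stood at 63.7, 60.4, 59.2 and 54.2 CPM in unloaded Notch2-mKO muscle, against 79.4, 73.9, 89.2 and 71.5 CPM in Notch2-mKO controls. The groups did not overlap, with a log2 fold change of -0.40 ± 0.102 (SE, adjusted p = 0.0201), but the adjusted p was 0.0648 without control replicate 3 and 0.0523 without unloaded replicate 4.

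The genes named for WT unloading were not called here. Rps2 stood at 888, 749, 727 and 633 CPM in unloaded Notch2-mKO muscle, against 921, 944, 1039 and 859.6 CPM in Notch2-mKO controls, with overlap and a log2 fold change of -0.33 ± 0.109 (SE, adjusted p = 0.0631). The log2 fold change of Rplp0 was -0.16 ± 0.103 (SE, adjusted p = 0.366) and that of Rpl3l was -0.34 ± 0.149 (SE, adjusted p = 0.157). For Rpl22 it was 0.17 ± 0.0991 (SE, adjusted p = 0.307) and for Rpl4 0.36 ± 0.153 (SE, adjusted p = 0.143). Trend-removed, 1 member was called higher and 3 lower, against 4.51% and 3.19% (7.69% in all) of all genes tested, and both calls were kept. Without Notch2-mKO control replicate 3 the count of called members was 1, and it was 4 without unloaded Notch2-mKO replicate 1 or without WT control replicate 3.

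Diabetes in WT muscle came with calls in both directions in the main fit. Of the 81 genes, 6 were called higher and 7 lower, 16.0% in all, against 17.8% called higher and 15.5% called lower (33.4% in all) of all genes tested. The median was 0.05, against -0.01 over all genes tested, and -0.02 without replicate 3 of the diabetic libraries. Trend-removed it was 0.23, with 27 members called higher and 2 lower (12.6% and 11.5% of all genes tested). On the authors' scale it was 0.32, against 0.10 over all genes tested, with 16 called higher and 0 lower (18.1% and 3.10% of all genes tested). In 10 members every diabetic library lay above every control and in 7 every one lay below, against 15.9% and 14.1% of all genes tested.

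Members called lower in WT diabetes included several of the shortest. Rps29 stood at 101, 71.6, 100.4 and 93.6 CPM in diabetic WT muscle, against 123, 161, 183 and 121 CPM in WT controls. All diabetic libraries were below all controls, with a log2 fold change of -0.68 ± 0.154 (SE, adjusted p = 0.00152) and a trend-removed change of -0.34 (adjusted p = 0.0749). Rpl38, a large-subunit protein known in mice for its role in the translation of Hox mRNAs, stood at 75.2, 57.9, 78.8 and 72.0 CPM in diabetic WT muscle, against 92.6, 100.3, 128 and 115 CPM in WT controls. Again no libraries overlapped; the log2 fold change was -0.62 ± 0.137 (SE, adjusted p = 0.00129) and the trend-removed change -0.17 (adjusted p = 0.340). Rps28, a small-subunit protein near the mRNA exit, stood at 79.2, 68.5, 106 and 71.4 CPM in diabetic WT muscle, against 95.3, 111, 138 and 102 CPM in WT controls. Diabetic replicate 3 lay within the range of the controls, the log2 fold change was -0.46 ± 0.131 (SE, adjusted p = 0.00883), and it was -0.09 trend-removed. Without WT control replicate 3 its log2 fold change was -0.34 (edgeR adjusted p = 0.0551).

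Rpl35a and Rpl27, both of the large subunit, and Rpl3l were also lower in WT diabetes. Rpl35a stood at 145, 128, 149 and 143 CPM in diabetic WT muscle, against 171, 171, 207 and 174 CPM in WT controls. It did not overlap between groups, with a log2 fold change of -0.36 ± 0.0900 (SE, adjusted p = 0.00356), and trend-removed it was -0.26 (adjusted p = 0.0318). Rpl27 changed by -0.31 ± 0.102 (SE, adjusted p = 0.0216) and Rpl3l by -0.40 ± 0.149 (SE, adjusted p = 0.0406). Both calls depended on single libraries. Without diabetic replicate 3 the log2 fold change of Rpl3l was -0.28 (adjusted p = 0.163), and its call was also lost without diabetic replicate 2 or any 1 of control replicates 1 to 3. The call of Rpl27 was lost without diabetic replicate 2 or 4 or control replicate 3, with adjusted p-values of 0.0501 to 0.0834. The last fall called was that of Rpl28, by 0.29 on the log2 scale, and it was lost without diabetic replicate 1, 2 or 4 or control replicate 1 or 3, with adjusted p-values of 0.0690 to 0.138.

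Higher in WT diabetes were 5 large-subunit genes and Rps24. Rpl4 stood at 798, 876, 1149 and 764 CPM in diabetic WT muscle, against 529, 532, 545 and 645 CPM in WT controls. The lowest diabetic library was above the highest control, with a log2 fold change of 0.67 ± 0.153 (SE, adjusted p = 0.00158), and trend-removed it was 0.65 (adjusted p = 0.00255). Rpl12, which forms the base of the stalk and whose start with a pyrimidine run is printed above, stood at 209.8, 239, 323 and 219.8 CPM in diabetic WT muscle, against 159, 146, 176 and 155 CPM in WT controls. It did not overlap either, with a log2 fold change of 0.64 ± 0.147 (SE, adjusted p = 0.00162) and a trend-removed change of 0.81 (adjusted p = 0.000552).

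Rpl22 stood at 121, 140.3, 171 and 126 CPM in diabetic WT muscle, against 107, 106, 98.8 and 107 CPM in WT controls. All diabetic libraries were higher, with a log2 fold change of 0.42 ± 0.0993 (SE, adjusted p = 0.00227) and a trend-removed change of 0.47 (adjusted p = 0.00301). Its paralog Rpl22l1, whose transcript has the lowest GC content of the family (39.0%), stood at 38.7, 37.4, 33.5 and 32.9 CPM in diabetic WT muscle, against 21.8, 24.3, 32.5 and 22.2 CPM in WT controls. No libraries overlapped, and the log2 fold change was 0.50 ± 0.164 (SE, adjusted p = 0.0211), but -0.19 trend-removed. Its call was lost without diabetic replicate 2 or control replicate 1 or 4, with adjusted p-values of 0.0511 to 0.0714. Rpl5 had a log2 fold change of 0.34 (edgeR adjusted p = 0.0193), but -0.15 trend-removed. Without diabetic replicate 3 the value of Rpl5 was 0.29 (edgeR adjusted p = 0.0666), and without control replicate 2 it was 0.29 (edgeR adjusted p = 0.0653). Rps24, of the small subunit, changed by 0.26 ± 0.0987 (SE, adjusted p = 0.0475), and 19 of the 24 fits without 1 library lost that call. Without diabetic replicate 3 the value of Rps24 was 0.20 (edgeR adjusted p = 0.151).

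The trend moved more calls in WT diabetes than in any other comparison. Trend-removed, 27 members were called higher and 2 lower, against 12.6% and 11.5% (24.1% in all) of all genes tested, and the members' median was 0.23. Called in both fits were Rpl4, Rpl12, Rpl22, Rps24 and Rpl35a. Without 1 library the number of called members lay between 8, without diabetic WT replicate 2, and 19, without unloaded Notch2-mKO replicate 1.

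In diabetic Notch2-mKO muscle, 0 members were called higher and 2 lower, 2.47%, against 3.05% and 2.54% (5.59% in all) of all genes tested. The median was 0.06, against -0.01 over all genes tested. It was 0.15 trend-removed and 0.18 on the authors' scale, against 0.0023 and 0.03 over all genes tested. In 6 members every diabetic library lay above every control and in 6 every one lay below, against 8.65% and 9.18% of all genes tested. Rps29 stood at 103, 91.8, 81.5 and 94.8 CPM in diabetic Notch2-mKO muscle, against 171, 150.4, 182 and 157 CPM in Notch2-mKO controls. The groups were far apart, with a log2 fold change of -0.83 ± 0.155 (SE, adjusted p = 0.00508) and a trend-removed change of -0.64 (adjusted p = 0.0117). Rpl38 stood at 75.9, 73.2, 73.3 and 75.7 CPM in diabetic Notch2-mKO muscle, against 99.0, 104, 119.8 and 93.3 CPM in Notch2-mKO controls. It did not overlap, with a log2 fold change of -0.48 ± 0.137 (SE, adjusted p = 0.0405), but 7 of the 24 fits without 1 library lost the call, and the trend-removed change was -0.22 (adjusted p = 0.343). Trend-removed, 2 members were called higher and 1 lower, against 2.29% and 1.98% (4.28% in all) of all genes tested.

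None of the 6 genes called higher in WT diabetes was called in Notch2-mKO diabetes, and one of them, Rpl22l1, had the opposite sign there. Rpl22l1 averaged 30.9 ± 6.93 CPM in diabetic Notch2-mKO muscle and 32.6 ± 3.55 CPM in Notch2-mKO controls (SD, n = 4 each), a log2 fold change of -0.08 (edgeR adjusted p = 0.834). Rpl4 stood at 774, 814, 793 and 832 CPM in diabetic Notch2-mKO muscle, against 650.2, 571, 640.1 and 556 CPM in Notch2-mKO controls. No library overlapped, and the log2 fold change was 0.41 ± 0.153 (SE, adjusted p = 0.109). The log2 fold change of Rpl12 was 0.31 ± 0.146 (SE, adjusted p = 0.211) and that of Rpl22 was 0.17 ± 0.0991 (SE, adjusted p = 0.325). For Rpl5 it was 0.28 (edgeR adjusted p = 0.124) and for Rps24 0.16 (edgeR adjusted p = 0.356).

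Rps29 was the only member called in 3 comparisons. In WT unloading, the fourth, it stood at 139, 138, 106 and 91.9 CPM in unloaded WT muscle, against 123, 161, 183 and 121 CPM in WT controls, with overlap and a log2 fold change of -0.31 ± 0.154 (SE, adjusted p = 0.124). Both treatments of a genotype are set against the same 4 controls, so the comparisons are not independent. Notch2-mKO controls had the highest group mean, 165 ± 14.3 CPM, against 147 ± 30.1 CPM in WT controls (SD, n = 4 each). The transcript of Rps29 has 390 bases. Over 20 genes that are no members, under 450 bases and at 50 CPM or more, the median log2 fold change was -0.31 in Notch2-mKO unloading, -0.32 in Notch2-mKO diabetes, -0.35 in WT unloading and -0.57 in WT diabetes. Over the 10 shortest members, Rps29 among them, it was 0.0042, -0.03, -0.16 and -0.15 in the same order. The part of transcript length in the change of Rps29 was not tested.

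**Figure D4:**
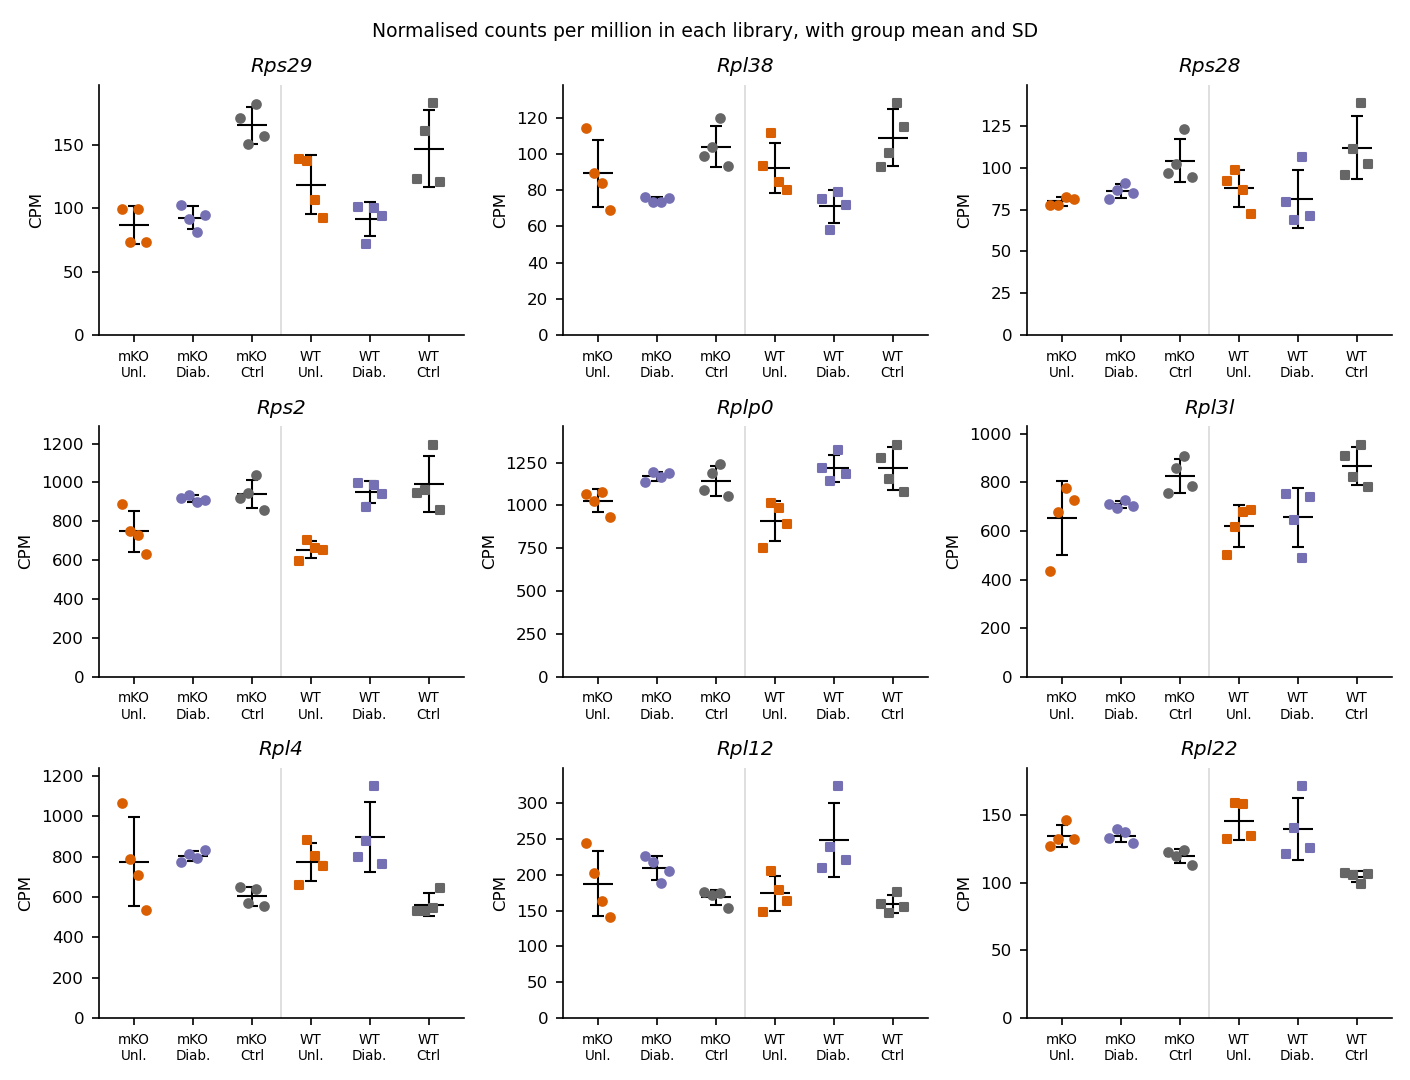
CPM in each of 24 libraries for Rps29, Rpl38, Rps28, Rps2, Rplp0, Rpl3l, Rpl4, Rpl12 and Rpl22, by group (mKO, Notch2-mKO; Unl., unloading; Diab., diabetes; Ctrl, control). Points are libraries and bars are means with SD (n = 4); Rps29 lies between 73.4 and 103 CPM in treated Notch2-mKO libraries and between 150.4 and 182 CPM in their controls.

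The direct comparisons of genotype gave no called member. In each of the 3 comparisons of Notch2-mKO with WT muscle, and in both tests of whether the response to unloading or diabetes differed between genotypes, edgeR called 0 of 81 members (0% of all genes tested). DESeq2 also called 0 members, but of the 13048 genes tested it called 22 higher and 101 lower for the difference in unloading response. For the difference in diabetes response it called 0 higher and 3 lower. Between genotypes it called 3 higher and 2 lower in unloading, 0 and 0 in diabetes, and 1 and 2 in controls. At an unadjusted edgeR p below 0.05, members numbered 8 in Notch2-mKO against WT muscle in unloading, 0 in diabetes and 1 in controls, among 1345, 692 and 695 of all genes tested. For the difference in response they numbered 11 for unloading and 1 for diabetes, among 1875 and 1142 of all genes tested. Every Notch2-mKO library lay above every WT library in 2 members in unloading (2.64% of all genes tested), 1 in diabetes (1.78%) and 1 in controls (1.58%), and below in 0 members in each (3.70%, 1.79% and 1.20%). The members' median difference between unloaded Notch2-mKO and unloaded WT muscle was 0.11, against 0.02 over all genes tested, and 0.01 without unloaded Notch2-mKO replicate 1. The median difference in unloading response, Notch2-mKO minus WT, was 0.14 and became 0.05 without that library.

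For Rps29 the unloading response differed by -0.63 ± 0.218 on the log2 scale (SE, unadjusted p = 0.00808), but the edgeR adjusted p was 0.203. The same difference for Rpl22 was -0.31 (edgeR adjusted p = 0.302) and for Rpl22l1 -0.47 (edgeR adjusted p = 0.352). In diabetes the response of Rpl22l1 differed by -0.57 (edgeR adjusted p = 0.506). None of these 4 differences passed the threshold.

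The remaining genes with a role of their own did not pass the main test in any comparison. Rps6 stood at 288 to 381 CPM in Notch2-mKO unloading, 340.3 to 375 in Notch2-mKO diabetes and 303 to 364 in Notch2-mKO controls, and at 296 to 319 CPM in WT unloading, 324 to 404 in WT diabetes and 321 to 364 in WT controls. Rps27a, made as a fusion with ubiquitin, ranged from 108 CPM to 202 CPM, its highest value in unloaded Notch2-mKO replicate 1. Rps4x ranged from 283 to 419 CPM, Rpl7 from 294 to 422 CPM and Rpl10 from 331 to 533 CPM over the 24 libraries. None of these genes was called in the main fit, but some groups did not overlap. For Rps6, each unloaded WT library, at 319 CPM or less, lay below each WT control, at 321 CPM or more. For Rps27a, each diabetic WT library, at 130.2 CPM or more, lay above each WT control, at 128.6 CPM or less. Rps27 averaged 130.3 ± 46.5 CPM in Notch2-mKO unloading and 111 ± 13.0 CPM in Notch2-mKO controls, and 108 ± 12.9 CPM in WT unloading and 106 ± 17.7 CPM in WT controls (SD, n = 4 each). In unloaded Notch2-mKO replicate 1 Rps27 stood at 199.9 CPM, against 102 to 110.2 CPM in the rest of its group. Its paralog Rps27l averaged 91.0 ± 17.3 CPM in Notch2-mKO unloading and 88.9 ± 14.3 CPM in Notch2-mKO controls, and 79.4 ± 12.1 CPM in WT unloading and 89.3 ± 7.48 CPM in WT controls (SD, n = 4 each). In diabetes Rps27l averaged 79.3 ± 6.37 CPM in Notch2-mKO muscle and 72.6 ± 5.87 CPM in WT muscle (SD, n = 4 each). Each diabetic WT library, at 77.7 CPM or less, lay below each WT control, at 80.2 CPM or more, with a log2 fold change of -0.30 (edgeR adjusted p = 0.0928). Trend-removed, Rps27l was called lower in WT diabetes, at -0.42 (edgeR adjusted p = 0.0119), and in WT unloading, at -0.35 (edgeR adjusted p = 0.0304), and Rps27 was called higher in WT diabetes, at 0.47 (edgeR adjusted p = 0.0404). Rpl3 averaged 69.8 ± 30.7 CPM in Notch2-mKO unloading, 60.5 ± 4.87 in Notch2-mKO diabetes and 60.7 ± 1.32 in Notch2-mKO controls, and 54.5 ± 3.47 CPM in WT unloading, 66.9 ± 7.54 in WT diabetes and 63.3 ± 5.90 in WT controls (SD, n = 4 each). In unloaded Notch2-mKO replicate 1 Rpl3 stood at 116 CPM, against 49.1 to 57.6 CPM in the rest of its group. For Rpl3, each unloaded WT library, at 57.9 CPM or less, lay below each WT control, at 58.7 CPM or more, with a log2 fold change of -0.21 (edgeR adjusted p = 0.345). Rps4y2 had a log2 fold change of -0.57 ± 0.268 (SE, adjusted p = 0.0995) in WT unloading.

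The small subunit's share of the summed CPM of the family averaged lower in each treated group than in its controls, with no test made. It averaged 35.6% ± 0.578 in Notch2-mKO unloading, 36.0% ± 0.370 in Notch2-mKO diabetes and 36.6% ± 0.198 in Notch2-mKO controls (SD, n = 4 each). It averaged 35.1% ± 0.174 in WT unloading, 35.9% ± 0.283 in WT diabetes and 36.4% ± 0.582 in WT controls (SD, n = 4 each). Each unloaded WT library, at 35.4% or less, lay below each WT control, at 35.7% or more. The other treated groups overlapped their controls. In such sums the members at high levels weigh most. Rps2 and Rpl4 held 4.02% and 3.41% of the members' CPM, and in WT unloading Rps2 was called lower and Rpl4 higher. No share was computed without them. Median log2 fold changes of small-subunit and large-subunit genes were -0.14 and -0.11 in WT unloading and 0.06 and 0.02 in WT diabetes. They were -0.0018 and 0.06 in Notch2-mKO unloading and 0.04 and 0.06 in Notch2-mKO diabetes.

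Across the 81 members, log2 fold changes were lower where the GC content of the transcript was higher. The correlation was -0.21 in Notch2-mKO unloading, -0.22 in Notch2-mKO diabetes, -0.40 in WT unloading and -0.33 in WT diabetes (n = 81 genes, which share libraries and are not replicates). Trend-removed, the same correlations were 0.19, 0.34, 0.50 and 0.48, all of the opposite sign. The part of base composition in the calls was not tested beyond this.

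**Figure D5:**
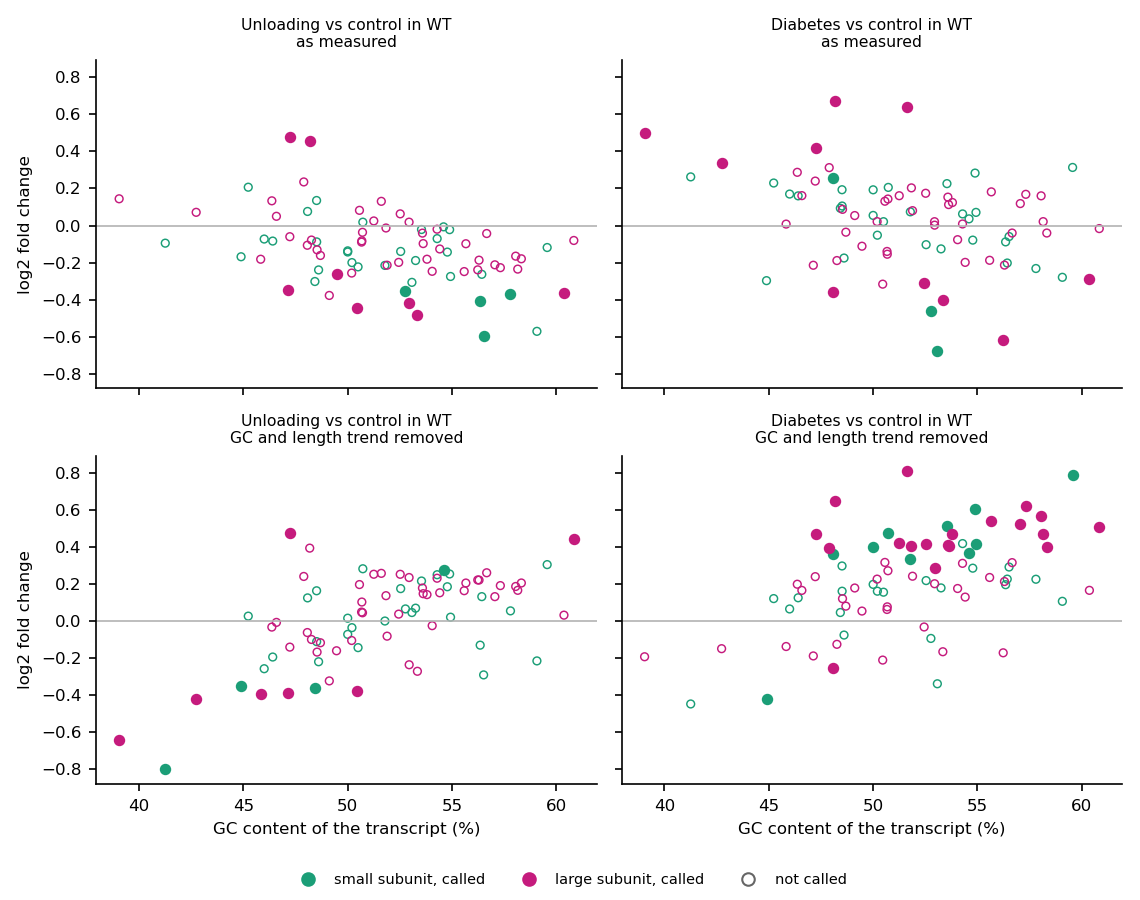
Log2 fold change of the 81 genes against the GC content of their transcripts (percent), as measured (top) and with the GC and length trend of each library removed (bottom), for WT unloading and WT diabetes. The correlation is -0.40 and -0.33 in the top panels and 0.50 and 0.48 in the bottom panels.

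The sequence at the start was also set beside the fold changes. For members with a pyrimidine run at the annotated start the median log2 fold change was 0.07 in Notch2-mKO unloading, 0.05 in Notch2-mKO diabetes, -0.11 in WT unloading and 0.06 in WT diabetes (28 genes). Trend-removed, these medians were 0.14, 0.16, 0.15 and 0.26. For the 32 genes without the run it was -0.01 in Notch2-mKO unloading, 0.05 in Notch2-mKO diabetes, -0.13 in WT unloading and 0.06 in WT diabetes, and 0.05, 0.14, 0.0086 and 0.20 trend-removed. The difference between the gene groups was not tested.

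Other genes of translation were listed from general knowledge, with earlier results of these data known. Of 21 further TOP mRNAs found of 22 listed, 5 were called higher and 4 lower in WT unloading (median 0.03, 7 and 2 trend-removed), against 18.4% and 16.3% of all genes tested. In WT diabetes 5 were called higher and 3 lower (median 0.18, 5 and 1 trend-removed), against 17.8% and 15.5% of all genes tested. In Notch2-mKO muscle, 2 were called higher in unloading (median 0.15) and 1 in diabetes (median 0.14), with 0 lower in either, against 4.11% higher and 3.20% lower of all genes tested in unloading and 3.05% and 2.54% in diabetes. No list described here was tested as a set. Nap1l1, a histone chaperone, changed by 1.33 ± 0.165 (SE, adjusted p = 3.45e-06) and Eef1g, a subunit of the elongation factor that loads tRNA, by -0.43 ± 0.107 (SE, adjusted p = 0.00303) on the log2 scale in WT unloading. Both kept their calls trend-removed.

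Among translation initiation factors, calls in WT muscle were mostly of higher genes. Of 30 found of 31 listed, 17 were called higher and 0 lower in WT unloading (median 0.35, 12 higher and 3 lower trend-removed), against 18.4% and 16.3% of all genes tested, and 14 higher and 2 lower in WT diabetes (median 0.19, 7 higher and 3 lower trend-removed), against 17.8% and 15.5%. In Notch2-mKO muscle, 4 were called higher and 0 lower in unloading (median 0.23) and 2 higher and 0 lower in diabetes (median 0.12). The shares of all genes tested were 4.11% higher and 3.20% lower in unloading and 3.05% and 2.54% in diabetes. Eif5, which triggers GTP hydrolysis on the scanning complex, changed by 1.04 ± 0.208 (SE, adjusted p = 0.00647) in Notch2-mKO unloading and 0.94 ± 0.208 (SE, adjusted p = 0.0129) in Notch2-mKO diabetes, and by 1.88 ± 0.213 (SE, adjusted p = 1.68e-06) in WT unloading and 1.77 ± 0.213 (SE, adjusted p = 5.32e-06) in WT diabetes. Of the 6 elongation and release factors, 4 were called higher in WT unloading (2 higher and 1 lower trend-removed) and 2 higher and 1 lower in WT diabetes (1 and 1 trend-removed). In Notch2-mKO muscle, 1 was called higher in unloading (1 trend-removed) and 1 in diabetes (0 trend-removed). Of all genes tested, 18.4% were called higher in WT unloading, and 17.8% higher and 15.5% lower in WT diabetes. In Notch2-mKO muscle, 4.11% were called higher in unloading and 3.05% in diabetes.

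Ribosome biogenesis factors make and process rRNA and assemble the subunits. Of 47 genes, 18 were called higher and 2 lower in WT unloading (median 0.22, 17 and 1 trend-removed), against 18.4% and 16.3% of all genes tested, and 17 higher and 1 lower in WT diabetes (median 0.23, 12 and 3 trend-removed), against 17.8% and 15.5%. In Notch2-mKO muscle, 3 were called higher and 0 lower in unloading (median 0.22) and 3 higher and 0 lower in diabetes (median 0.13). The shares of all genes tested were 4.11% higher and 3.20% lower in unloading and 3.05% and 2.54% in diabetes. Ncl, nucleolin, changed by 0.99 ± 0.180 (SE, adjusted p = 0.00342) in Notch2-mKO unloading and 0.77 ± 0.179 (SE, adjusted p = 0.0163) in Notch2-mKO diabetes, and by 1.91 ± 0.184 (SE, adjusted p = 5.90e-07) in WT unloading and 1.48 ± 0.182 (SE, adjusted p = 6.32e-06) in WT diabetes. Dkc1, the pseudouridine synthase of rRNA, changed by 1.48 ± 0.223 (SE, adjusted p = 2.46e-05) in WT unloading and 1.54 ± 0.223 (SE, adjusted p = 2.38e-05) in WT diabetes.

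Among 19 regulators of these mRNAs, 5 were called higher and 2 lower in WT unloading (18.4% and 16.3% of all genes tested) and 7 higher and 3 lower in WT diabetes (17.8% and 15.5%). In Notch2-mKO muscle, 1 was called higher and 1 lower in unloading (4.11% and 3.20%), and 1 higher and 0 lower in diabetes (3.05% and 2.54%). Trend-removed, regulators called higher and lower numbered 5 and 1 in WT unloading and 7 and 0 in WT diabetes. They numbered 2 and 1 in Notch2-mKO unloading and 1 and 0 in Notch2-mKO diabetes. Ddit4, a stress-induced inhibitor of mTORC1, changed by -2.05 ± 0.540 (SE, adjusted p = 0.0246) in Notch2-mKO unloading and -2.22 ± 0.544 (SE, adjusted p = 0.00260) in WT unloading. In diabetes it was on the other side of the controls: the log2 fold change was 1.40 ± 0.522 (SE, adjusted p = 0.109) in Notch2-mKO muscle and 1.51 ± 0.524 (SE, adjusted p = 0.0282) in WT muscle. Rps6kb1, a kinase of Rps6, changed by 1.09 ± 0.179 (SE, adjusted p = 5.75e-05) in WT unloading and 0.97 ± 0.178 (SE, adjusted p = 0.000237) in WT diabetes. Larp1 changed by 0.41 ± 0.121 (SE, adjusted p = 0.0101) in WT unloading and 0.45 ± 0.121 (SE, adjusted p = 0.00633) in WT diabetes, and kept its call trend-removed in both. By edgeR, none of these lists had a called gene in the comparisons of genotype.

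Markers of other cells and of the fibres also differed between treated and control libraries. Of 5 tendon genes, 4 (Fmod, Comp, Thbs4 and Tnmd) were called lower in each of the 4 treatment comparisons and 0 higher, with medians of -1.53 in Notch2-mKO unloading, -1.43 in Notch2-mKO diabetes, -1.76 in WT unloading and -1.37 in WT diabetes. Of all genes tested, 3.20%, 2.54%, 16.3% and 15.5% were called lower, in the same order. The summed level of the tendon genes was 71.9 to 126 CPM in Notch2-mKO unloading and 90.1 to 117 in Notch2-mKO diabetes, against 241 to 331 in Notch2-mKO controls. It was 62.7 to 130.03 CPM in WT unloading and 84.5 to 134 in WT diabetes, against 250.9 to 292 in WT controls.

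Fibroblast genes went both ways. Of 5, 0 were called higher and 1 lower in Notch2-mKO unloading (median -0.24), 0 and 2 in Notch2-mKO diabetes (median 0.07), 1 and 2 in WT unloading (median 0.09) and 2 and 2 in WT diabetes (median 0.35). Over all genes tested, the shares called higher and lower were 4.11% and 3.20%, 3.05% and 2.54%, 18.4% and 16.3%, and 17.8% and 15.5% in these comparisons. Col1a1, a chain of the fibrillar collagen of connective tissue, was lower in all 4, and in WT diabetes it changed by -2.67 ± 0.439 (SE, adjusted p = 8.26e-05). Dcn, the matrix proteoglycan decorin, was called higher in WT unloading (0.56, edgeR adjusted p = 0.0147) and WT diabetes (0.54, edgeR adjusted p = 0.0203), and trend-removed it was called in neither. Endothelial genes numbered 2 of 7 called lower in Notch2-mKO unloading, 0 in Notch2-mKO diabetes, 2 in WT unloading and 2 in WT diabetes, with medians of -0.32, -0.22, -0.45 and -0.37 and 0 called higher. Of all genes tested, 3.20%, 2.54%, 16.3% and 15.5% were called lower, in the same order.

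Of 8 macrophage and leukocyte genes, 0 were called higher and 3 lower in WT unloading (18.4% and 16.3% of all genes tested), 2 higher and 1 lower in WT diabetes (17.8% and 15.5%), and 0 in Notch2-mKO muscle (7.31% in all in unloading and 5.59% in diabetes). They summed to 50.9 to 77.8 CPM in Notch2-mKO unloading, 49.7 to 66.3 in Notch2-mKO diabetes and 47.04 to 77.1 in Notch2-mKO controls, and to 45.6 to 58.6 CPM in WT unloading, 57.8 to 72.8 in WT diabetes and 62.9 to 73.1 in WT controls. The 9 muscle fibre genes summed to 127145 to 234361 CPM in Notch2-mKO unloading and 198314 to 223557 in Notch2-mKO diabetes, against 230387 to 261773 in Notch2-mKO controls. They summed to 164689 to 218416 CPM in WT unloading and 164642 to 228281 in WT diabetes, against 244757 to 297421 in WT controls. The part of these shifts in the levels of the ribosomal protein genes was not tested.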

How the data were processed

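RNA sequencing of 24 mouse gastrocnemius libraries was analysed from the authors' deposited tables. These hold estimated counts for RefSeq gene models, per the file headers, and the authors' log2 values, which are scaled per library and centred on the controls of the same genotype. The submitters' processing notes name the genome build mm10 and no tool; how reads were aligned and counted is not given in the sources used. Estimated counts were rounded, and 13048 genes passed edgeR's expression filter. All 6 groups were fitted together with edgeR 4.0.16 (TMM scaling, quasi-likelihood test, R 4.3.3), with Benjamini-Hochberg adjustment over all genes tested and a threshold of 0.05. Library totals ran from 33112459 to 56369917 counts, and the common biological coefficient of variation was 20.0%. GC content and transcript length came from GENCODE vM21 transcripts for 96.9% of the genes tested and for all 81 members. In simulated data for unloading against control in WT (12945 genes), 80.0% of rises of 1 on the log2 scale were called and 32.0% of rises of 0.585, with 0.00784% false calls. Falls of the same sizes were called in 68.75% and 22.45%. Only 48 to 50 genes were changed at each size, whereas 34.7% of genes were called in the real comparison. These rates therefore do not give the chance that a changed member is called.

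The members, the gene lists and the naming rule were chosen with earlier results of these data known. Named in each comparison were up to 6 called members with the largest rise and up to 6 with the largest fall, besides paralogs and their parents, the stalk genes, Rpsa, Rps6, Rps27a, and the 5 highest and 5 lowest members per length. Same-numbered replicates did not deviate together: 60 pairs gave correlations of -0.23 to 0.33, with 7 over 0.1, so numbers were not taken as pairs. Alternatives were DESeq2 1.42.0, RLE and upper quartile scaling, no expression filter, limma 3.58.1 on the authors' log2 values, removal of the GC and length trend, the replicate number as a block, and leaving out each library; the block with the trend removed and the family level without 2 libraries were added after seeing the data.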

Additional observations from a re-analysis of the deposited data

Results flagged for a closer look

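For the named members and 5 measures of the family (its share of counts, its summed CPM, its mean relative level, the share of the small subunit and the share of Rpl3l in the Rpl3l and Rpl3 pair), 222 groups of 4 libraries were examined for a single library far from the other 3. Chance alone flags about 1 in 20 groups, and 16 were found. In unloaded Notch2-mKO replicate 1, Rpl3 stood at 116 CPM (the other 3 libraries at 49.1 to 57.6), Rpl5 at 402 CPM (268 to 288), Rpl7l1 at 40.6 CPM (23.2 to 25.9) and Rps27 at 199.9 CPM (102 to 110.2), and the share of Rpl3l in the pair was 79.0% (92.7% to 93.2%). This library also had the lowest sum of muscle fibre genes; the part of that in these values was not tested. In replicate 3 of WT diabetes, Rpl7 stood at 422 CPM (336 to 350.2) and Rps24 at 327 CPM (279.7 to 285). In WT control replicate 3, Rpl22 was low at 98.8 CPM (106 to 107), while Rpl35a stood at 207 CPM (171 to 174) and Rps20 at 279.4 CPM (207 to 209). Rpl4 stood at 645 CPM in WT control replicate 4 (529 to 545). In Notch2-mKO muscle, Rpl35a stood at 181 CPM in unloaded replicate 3 (166 to 168), Rps24 at 243 CPM in unloaded replicate 4 (285 to 291), Rps15 at 324 CPM in diabetic replicate 1 (349 to 353) and Rpl22l1 at 37.9 CPM in control replicate 3 (30.2 to 31.2). The small subunit's share of the family was 36.3% in replicate 1 of WT diabetes (35.7% to 35.8%).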

How the results depend on the processing

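In WT unloading, the members' median log2 fold change was 0.049 with the GC and length trend removed, 0.049 with the block and the trend removed, and 0.12 on the authors' log2 values. In Notch2-mKO unloading the count of called members was 4 by DESeq2, 4 with upper quartile scaling, 4 with the trend removed and 0 on the authors' log2 values. In WT diabetes it was 29 with the trend removed, and the median was 0.23 with the trend removed and 0.32 on the authors' values. In Notch2-mKO diabetes, 30 members were called on the authors' values, with a median of 0.18. Over all genes tested, the medians on the authors' values were 0.06 in Notch2-mKO unloading, 0.03 in Notch2-mKO diabetes, 0.07 in WT unloading and 0.10 in WT diabetes. Log2 fold changes of genes at 10 CPM or more were higher on the authors' values than in the main fit. The median offset was 0.13 in Notch2-mKO unloading and diabetes, 0.25 in WT unloading and 0.26 in WT diabetes. With that offset between the fits subtracted, the members' medians were 0.02, 0.05, -0.13 and 0.05. Calls split into 17 higher and 1 lower in WT unloading (21.7% and 4.83% of all genes tested), 16 and 0 in WT diabetes (18.1% and 3.10%) and 28 and 2 in Notch2-mKO diabetes (7.59% and 2.01%). The authors' values were not compared between genotypes, which were centred separately. The cause of these changes was not tested.

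With the replicate number as a block, 2 members were called higher and 11 lower in WT unloading, 0 and 2 in Notch2-mKO unloading, 5 and 7 in WT diabetes, and 0 and 1 in Notch2-mKO diabetes, 1 in all there. With the block and the trend removed, 32 members were called in WT diabetes, with a median of 0.22. Of 24 libraries, 6 correlated best with a library of their own number.

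Without 1 library at a time, called members numbered 9 to 18 in WT unloading (medians -0.18 to -0.09), 1 to 4 in Notch2-mKO unloading (-0.07 to 0.11), 8 to 19 in WT diabetes (-0.02 to 0.08) and 1 to 4 in Notch2-mKO diabetes (0.03 to 0.11). They were 0 in every comparison of genotype and of responses, with medians of -0.09 to 0.01 in controls, 0.01 to 0.19 in unloading and -0.06 to 0.03 in diabetes, 0.05 to 0.22 for the difference in unloading response and -0.02 to 0.07 for that in diabetes response.

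Single genes reversed sign with the trend removed, and with the trend and the block: in WT unloading Rpl22l1 (-0.64 and -0.63), Rpl5 (-0.42 and -0.42), Rps15 (0.056 and 0.056) and Rps28 (0.066 and 0.073), and in WT diabetes Rpl22l1 (-0.19 and -0.17) and Rpl5 (-0.15 and -0.15). With both, Rps14 (0.29) and Rps20 (-0.43) reversed in WT diabetes. Apart from leaving out libraries, 932 of the values for single results and alternatives kept direction and side of the threshold, 44 lost it, 34 gained it and 14 reversed.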
